A study of Capra hircus with 9 samples.

Results

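The miRNAs of the miR-10 and miR-196 families that lie inside the HOX gene clusters were described in the mammary gland of Laoshan dairy goats. They were chosen by name, as every entry of the count table starting with chi-miR-10a, chi-miR-10b, chi-miR-196a or chi-miR-196b, whatever its arm. This gave 6 miRNAs of the 1359 listed, namely chi-miR-10a-5p, chi-miR-10a-3p, chi-miR-10b-5p, chi-miR-10b-3p, chi-miR-196a and chi-miR-196b, and all 6 were among the 696 miRNAs abundant enough to be tested.

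The study followed miRNAs of the gland through the lactation cycle. Late lactation (LL) was sampled on day 240 postpartum, the dry period (DP), when milking has ended and the gland is remodelled, on day 300 postpartum, and late gestation (LG) on day 140 after mating. Each stage had 3 healthy goats of this breed, of parity 3 and about 4 years old, with 1 small RNA library per goat; the labels name no treatment. The tissue was whole mammary gland taken after slaughter, so a library mixes epithelium, stroma, vessels, blood and immune cells. In such bulk tissue, fewer cells of a type and less of a miRNA per cell cannot be told apart.

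HOX genes encode transcription factors that give cells their position along the body axis, and adult cells keep much of that pattern. The miR-10 genes lie toward the HOX genes of more anterior expression and the miR-196 genes beside those of more posterior expression, and both families are known to repress HOX mRNAs: miR-10 targets HOXD10 and miR-196 targets HOXB8 in other mammals. From 1 hairpin the cell can keep either arm, the 5p or the 3p strand; in miR-10 the 5p strand is the one usually loaded into the silencing complex.

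The goat gene table of build ARS1.2 places these miRNAs in the HOXA, HOXB and HOXD clusters. MIR196A, at chr19:37494976-37495077, lies between HOXB13, 66065 bp away, and HOXB9, 5915 bp away. MIR10A, at chr19:37546424-37546544, lies 51.3 kb further along the same cluster, between HOXB5 at 11146 bp and HOXB3 at 4851 bp. MIR196B, at chr4:51338288-51338372, is held between HOXA9 at 586 bp and HOXA10 at 1034 bp, the shortest of the distances given here. MIR10B, at chr2:115557387-115557490, lies between HOXD8 at 17476 bp and HOXD3 at 2462 bp. These neighbours are the nearest genes with a HOX name in this gene table. It names no HOXB4 on chr19 and no HOXD4 on chr2, so MIR10A and MIR10B may have closer HOX neighbours than those given. None of the 4 miRNA genes overlaps another gene of this table, so all are intergenic in it. In other mammals a further copy of the miR-196a gene lies in the HOXC cluster; that copy in the goat was not analysed here, and a count of chi-miR-196a does not tell copies apart.

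**Figure D1:**
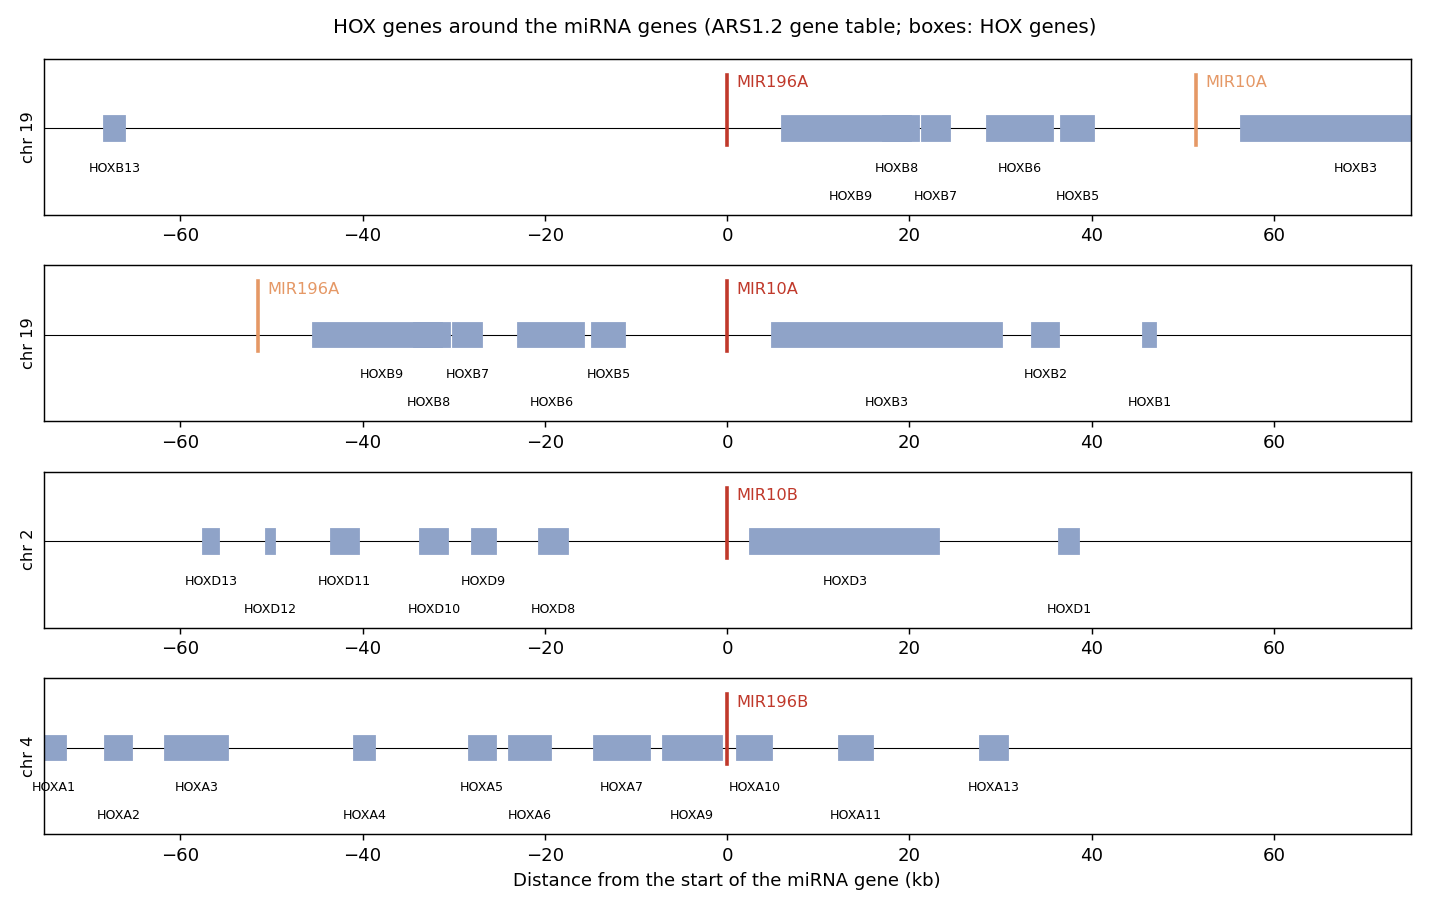
HOX genes (boxes) around the miRNA genes MIR196A, MIR10A, MIR10B and MIR196B (red lines) in the ARS1.2 gene table, with the distance in kb from the start of each miRNA gene on the x axis. The upper 2 panels show the same cluster, with the other miRNA gene of that cluster in orange, 51.3 kb away. Of the HOX genes drawn, HOXA9 and HOXA10 sit nearest to a miRNA gene, MIR196B. The gene table names no HOXB4 or HOXD4, so neither is drawn.

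The 5p arms of miR-10a and miR-10b differ by a single base in mammals, as do miR-196a and miR-196b. How many mismatches the authors' counting allowed is not given in the sources used here, so reads may have been split between these partners, and the level of either partner is uncertain to that extent. No member had the same counts as another listed miRNA in all libraries.

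The libraries held between 13672653 and 34378995 counts. A technical fact that touches the members is chi-miR-148a-3p, which alone held 48.4 to 59.4% of the counts in LL, 39.4 to 44.6% in LG and 8.81 to 10.8% in DP. Each other miRNA therefore has a different room in the libraries of each stage. Levels below are CPM (counts relative to the size of the library) scaled by TMM, a method that sets libraries to a common level by trimming the miRNAs that differ most, and the unscaled share of all counts is given where the libraries of 2 stages are separate on one of these scales and overlap on the other. A miRNA was called when its Benjamini-Hochberg adjusted p by edgeR's quasi-likelihood test was under 0.05 and its absolute log2 fold change (± SE) above 1. DP vs. LG, DP vs. LL and LL vs. LG share libraries with each other and are not independent of each other.

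Together the 6 miRNAs held 0.97% ± 0.159 (SD, n = 3) of all counts in LL, 1.69% ± 0.37 in DP and 0.972% ± 0.132 in LG. The 2 5p arms of miR-10 made up nearly all of this, at least 94.5% of it in every DP library and at least 98.1% in every other. On the TMM scale, all 6 had their highest mean in DP and their lowest in LG.

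**Figure D2:**
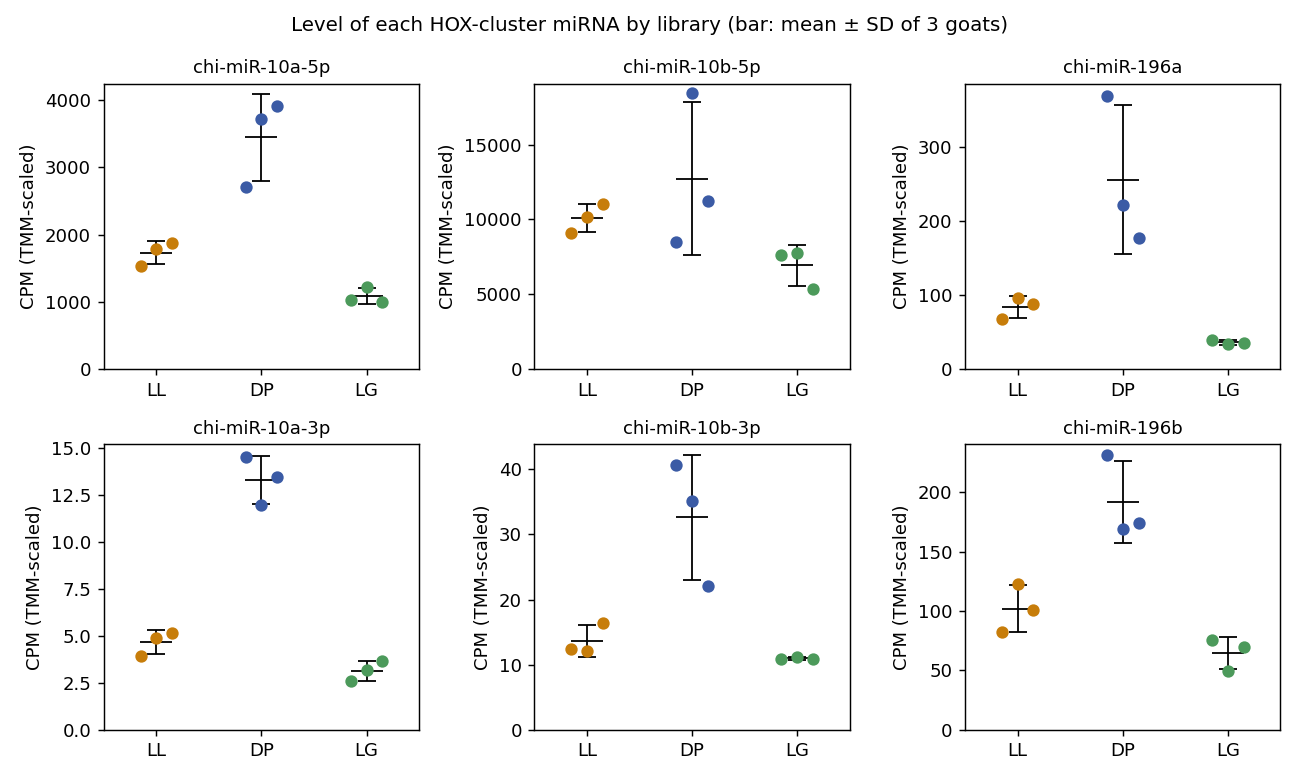
TMM-scaled CPM (y axis, linear and starting at 0) of the 6 miRNAs in each library of LL, DP and LG, with the mean ± SD of 3 goats. The DP libraries stand above the others for 5 of the miRNAs, while for chi-miR-10b-5p the DP library at 8513 CPM falls below all 3 LL libraries.

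chi-miR-10b-5p was by far the most abundant member and the least changed in DP. Its level was 9094, 10150 and 11000 CPM in LL, 8513, 18430 and 11220 CPM in DP, and 7653, 7787 and 5323 CPM in LG. The DP libraries spread so widely (12720 CPM ± 5123) that they overlapped those of LL, and they lay above those of LG. By mean level it ranked 15th of the tested miRNAs in LL, 16th in DP and 15th in LG.

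The difference of chi-miR-10b-5p between DP and LG was 0.88 ± 0.287 on the log2 scale, a 1.84-fold difference that passed the test (adjusted p = 0.0353) but not the limit on the fold. This pass was lost in 16 of 19 other settings (adjusted p from 0.0755 to 0.92, 0.322 without DP replicate 2); it was kept with limma-voom, with the replicate block and without DP replicate 1 (adjusted p from 0.0185 to 0.0424). Between DP and LL it was 0.34 ± 0.285 (adjusted p = 0.403). As a share of all counts, chi-miR-10b-5p took 0.992, 1.71 and 1.15% in DP and 0.677, 0.934 and 0.828% in LL, which did not overlap, so whether DP and LL overlap depends on the scaling. Its share in LG, 0.683 to 0.926%, was much as in LL.

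chi-miR-10a-5p, the matching arm of the HOXB gene, was less abundant and changed more. It measured 1533, 1786 and 1867 CPM in LL, 2708, 3720 and 3905 CPM in DP, and 1029, 1214 and 991.6 CPM in LG. The 3 stages did not overlap, with DP highest and LG lowest. It was 3.19-fold higher in DP than in LG (log2 fold change 1.68 ± 0.216, adjusted p = 0.000336).

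Against LL, chi-miR-10a-5p was 1.99-fold higher in DP (0.99 ± 0.213, adjusted p = 0.00596), which lies just under the limit on the fold, so it passed the test without being called. It crossed that limit in 8 of the 9 fits that left out 1 library, with log2 fold changes from 1.03 to 1.06, and not in the fit without DP replicate 3. Between LL and LG its log2 fold change was 0.68 ± 0.212 (adjusted p = 0.053).

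The 3p arms were rare strands with the same order of stages. chi-miR-10a-3p, with 50 to 308 counts per library, had 3.92, 4.89 and 5.13 CPM in LL, 14.5, 11.95 and 13.4 CPM in DP, and 2.57, 3.16 and 3.65 CPM in LG. Every DP library was above every LL and LG library. It was 4.24-fold higher in DP than in LG (2.08 ± 0.296, adjusted p = 0.000615) and 2.85-fold higher than in LL (1.51 ± 0.292, adjusted p = 0.0035), and was called in both comparisons.

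chi-miR-10b-3p had 12.4, 12.1 and 16.5 CPM in LL, 40.7, 35.2 and 22.0 CPM in DP, and 10.8, 11.2 and 10.8 CPM in LG. The DP libraries were again above all others, though DP replicate 3 was well below the other two. It was 2.98-fold higher in DP than in LG (1.58 ± 0.303, adjusted p = 0.00255) and 2.39-fold higher than in LL (1.26 ± 0.301, adjusted p = 0.0103). The call against LL was lost without DP replicate 1, when the log2 fold change was 0.95 (adjusted p = 0.0257), and with only DP and LL in the fit, when it was 1.16 (adjusted p = 0.0507). It was also lost by library size with chi-miR-148a-3p left out, when the log2 fold change was 0.69 (adjusted p = 0.122).

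chi-miR-196a had the largest log2 fold change of the 6 in each comparison. In DP vs. LL this order rested on DP replicate 1, without which chi-miR-196a was at 1.13 and chi-miR-10a-3p at 1.33, and with it their difference was smaller than either SE. Its levels were 67.0, 96.5 and 88.4 CPM in LL, 368.9, 221.4 and 176.7 CPM in DP, and 39.7, 33.1 and 35.5 CPM in LG. The 3 stages did not overlap, and DP replicate 1 stood highest. It was 7.08-fold higher in DP than in LG (2.82 ± 0.32, adjusted p = 0.000197), which was the 24th largest absolute change of the 696 tested, and 3.04-fold higher than in LL (1.61 ± 0.307, adjusted p = 0.00335).

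Of the 6, chi-miR-196a was also the one that was called between LL and LG, 2.33-fold higher in LL (1.22 ± 0.304, adjusted p = 0.0233). This call was lost without any one of the LL or LG libraries (0.96 to 1.13, adjusted p from 0.0563 to 0.119) and under 6 other settings, with the direction kept in each of them.

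chi-miR-196b, from between HOXA9 and HOXA10, was more abundant than chi-miR-196a in LL and LG and less abundant in DP. Its libraries had 82.6, 122.7 and 100.9 CPM in LL, 231.4, 169.3 and 174.2 CPM in DP, and 75.3, 49.3 and 69.3 CPM in LG. The 3 stages did not overlap, with the LL and LG libraries close to each other. It was 2.96-fold higher in DP than in LG (1.57 ± 0.273, adjusted p = 0.00155). Against LL it was 1.88-fold higher in DP (0.91 ± 0.269, adjusted p = 0.0273), under the limit on the fold. The adjusted p against LL was over 0.05 in 6 of 19 other settings (0.0592 with no filter, 0.0828 with only DP and LL in the fit, 0.0816 without LL replicate 1, 0.0627 without LL replicate 3, 0.0811 without DP replicate 1, and 0.403 by library size with chi-miR-148a-3p left out). Between LL and LG its log2 fold change was 0.66 ± 0.268 (adjusted p = 0.122).

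Counted over the list, 5 of the 6 miRNAs were called higher in DP than in LG, against 21.6% of all tested miRNAs, and all 6 had an adjusted p under 0.05, against 23.7%. The last count was 5 in 15 of 19 other settings, 6 in 3 of them and 3 by library size with chi-miR-148a-3p left out. All 6 had DP libraries above every LG library, which held for 27.7% of the tested miRNAs. The median log2 fold change of the members was 1.63, beside 0.18 for all tested.

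In DP vs. LL, chi-miR-10a-3p, chi-miR-10b-3p and chi-miR-196a were called higher in DP, 3 of 6 beside 15.1% of all tested. Those with an adjusted p under 0.05 numbered 5, all but chi-miR-10b-5p, beside 17.2%, and the same 5 had libraries that did not overlap, beside 21%. Those with an adjusted p under 0.05 numbered 4 with no filter and on leaving out either replicate 1 or 3 of LL or replicate 1 of DP, 3 with only DP and LL in the fit, and 2 by library size with chi-miR-148a-3p left out. The members' median was 1.13 and that of all tested 0.122. Without LL replicate 2 or without DP replicate 2, 5 members were called, beside 9.32% and 14.7% of all tested in these fits, with chi-miR-10a-5p and chi-miR-196b past the limit on the fold.

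In LL vs. LG, 1 of 6 was called higher in LL, beside 8.91%, and no other had an adjusted p under 0.05, beside 9.77% of all tested at any fold. All 6 had LL libraries above every LG library on the TMM scale, but so had 31% of the tested miRNAs, and the members' median of 0.615 stood beside 0.167 for all.

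**Figure D3:**
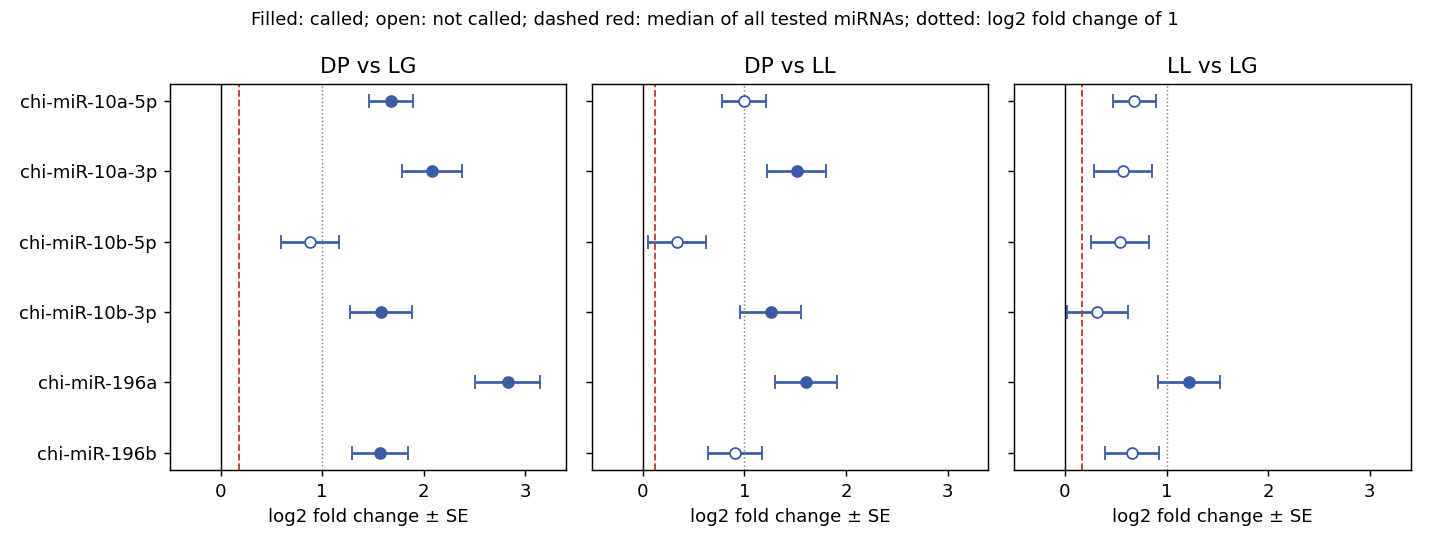
Log2 fold change ± SE (x axis) of each member in the 3 comparisons, from the fit of all 9 libraries; filled points were called, open points not, and the dashed line is the median of all 696 tested miRNAs. chi-miR-196a is farthest to the right in every panel, at 2.82, 1.61 and 1.22, and chi-miR-10b-5p is nearest to 0 in the 2 comparisons with DP.

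The order of LL and LG changed with the scaling. In unscaled shares of all counts, the DP libraries of all 6 members stood above every LG library, which held for 23% of the tested miRNAs, and above every LL library, which held for 31.8%. In the same shares, chi-miR-196a was the one member whose LL libraries all stood above those of LG, beside 10.1% of the tested miRNAs, and chi-miR-10b-3p had LL libraries below those of LG (0.000924 to 0.001239% against 0.001242 to 0.00139%). The shares of the other members in LL and LG overlapped, at 0.114 to 0.164% and 0.118 to 0.144% for chi-miR-10a-5p and at 0.00615 to 0.0113% and 0.00586 to 0.0089% for chi-miR-196b. For chi-miR-10a-3p they were 0.000292 to 0.00045% in LL and 0.000295 to 0.000468% in LG, with means of 0.000376% and 0.00038%, so that the order of the means was the reverse of that on the TMM scale. With library size as the scaling, the log2 fold changes of chi-miR-10a-3p, chi-miR-10b-3p and chi-miR-10b-5p for LL vs. LG were below 0, at −0.015, −0.27 and −0.027, and the median of all tested miRNAs was −0.42 in place of 0.167.

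Because chi-miR-148a-3p filled so much of the LL and LG libraries, the sizes were also set without it. With TMM after leaving it out, 5 members were still called in DP vs. LG and 3 in DP vs. LL, beside 14.9% and 11.5% of all tested miRNAs called higher in DP. With library size alone after leaving it out, 2 were called in DP vs. LG (chi-miR-10a-3p at 1.23 and chi-miR-196a at 2.00) and 1 in DP vs. LL (chi-miR-196a at 1.05), beside 5.86% and 3.82% of all tested called higher in DP. In that setting chi-miR-10b-5p was at −0.031 and −0.30, and the median of all tested miRNAs itself moved to −0.66 and −0.51.

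**Figure D4:**
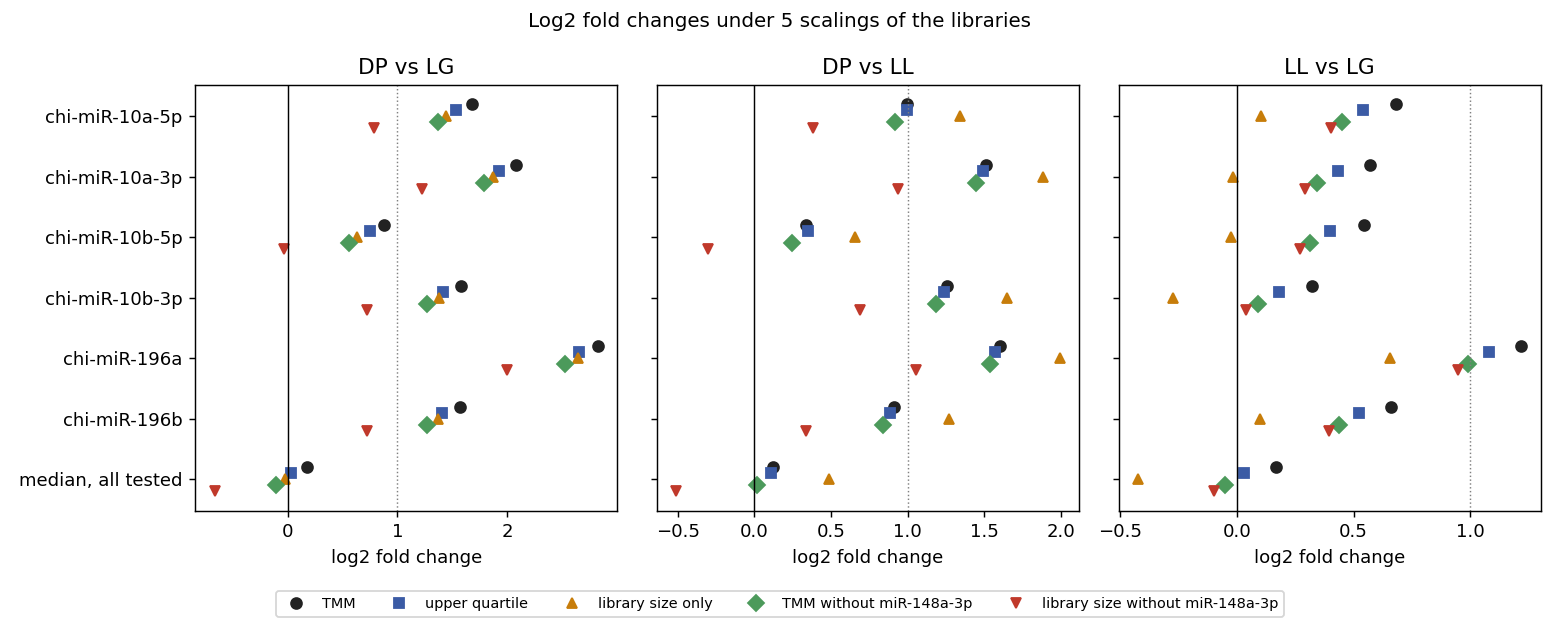
Log2 fold changes (x axis) of the 6 members and of the median of all tested miRNAs under 5 ways to scale the libraries, 1 panel per comparison. The members and the median of all tested miRNAs, at 0.18 with TMM and −0.66 with library size and without miR-148a-3p in DP vs. LG, shift in the same direction there; in DP vs. LG chi-miR-196a stays at 2.00 or above and chi-miR-10b-5p reaches −0.031.

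Ratios of 2 members within a library do not depend on the scaling, and 5 such ratios of counts were compared over the 3 stages with an exact permutation test of the F statistic (280 partitions of the libraries, one-sided). The ratio of the miR-196 partners differed between stages. There were 0.811, 0.787 and 0.876 reads of chi-miR-196a per read of chi-miR-196b in LL, 1.59, 1.31 and 1.01 in DP, and 0.527, 0.671 and 0.512 in LG. No stage overlapped another, and chi-miR-196a outnumbered its partner in each DP library and in none of the other 6.

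The mean log2 ratio of chi-miR-196a to chi-miR-196b was −0.28 ± 0.0798 (SD) in LL, 0.36 ± 0.327 in DP and −0.82 ± 0.215 in LG (exact permutation p = 0.00357, the smallest these partitions can give; adjusted over the 5 ratios, p = 0.0179). The adjusted p was 0.0536 without any one LL library and at most 0.0357 without any other. The ratio was 2.27-fold higher in DP than in LG, 1.56-fold higher in DP than in LL and 1.46-fold higher in LL than in LG, each with an exact two-sided permutation p = 0.1, the smallest that 3 against 3 libraries allow.

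Between the miR-10 partners, the 5p arm from HOXB gained on that from HOXD in DP. For every 1000 reads of chi-miR-10b-5p there were 168.5, 175.9 and 169.7 reads of chi-miR-10a-5p in LL, 318.2, 201.9 and 347.9 in DP, and 134.5, 155.9 and 186.3 in LG. The DP libraries lay above all others, DP replicate 2 by little, and LL and LG overlapped.

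The mean log2 ratio of chi-miR-10a-5p to chi-miR-10b-5p was −2.55 ± 0.0333 (SD) in LL, −1.83 ± 0.421 in DP and −2.67 ± 0.235 in LG (exact permutation p = 0.0179, adjusted p = 0.0446). It no longer passed the threshold when any one LL or LG library was left out (adjusted p from 0.0774 to 0.179). It was 1.79-fold higher in DP than in LG and 1.64-fold higher than in LL.

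The ratio of the 3p arms of the miR-10 partners did not pass the test. The mean log2 ratio of chi-miR-10a-3p to chi-miR-10b-3p was −1.54 ± 0.21 (SD) in LL, −1.25 ± 0.469 in DP and −1.82 ± 0.252 in LG (exact permutation p = 0.179, adjusted p = 0.179). These arms had 50 to 766 counts per library.

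The use of the 2 arms of a hairpin was compared in the same way. Of chi-miR-10a there were 2.56, 2.74 and 2.75 reads of the 3p arm per 1000 reads of the 5p arm in LL, 5.35, 3.21 and 3.44 in DP, and 2.5, 2.6 and 3.68 in LG. Of chi-miR-10b there were 1.36, 1.19 and 1.5 in LL, 4.79, 1.91 and 1.96 in DP, and 1.42, 1.44 and 2.03 in LG. In both hairpins the DP libraries were above those of LL, DP replicate 1 stood far above every other library, and LG replicate 3 was above DP replicates 2 and 3.

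Neither arm ratio passed the test over the 3 stages. The mean log2 ratio of 3p to 5p was −8.53 ± 0.0539 (SD) in LL, −8.00 ± 0.4 in DP and −8.43 ± 0.304 in LG for chi-miR-10a (exact permutation p = 0.104, adjusted p = 0.129). For chi-miR-10b it was −9.54 ± 0.165, −8.58 ± 0.754 and −9.28 ± 0.294 (exact permutation p = 0.075, adjusted p = 0.125).

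**Figure D5:**
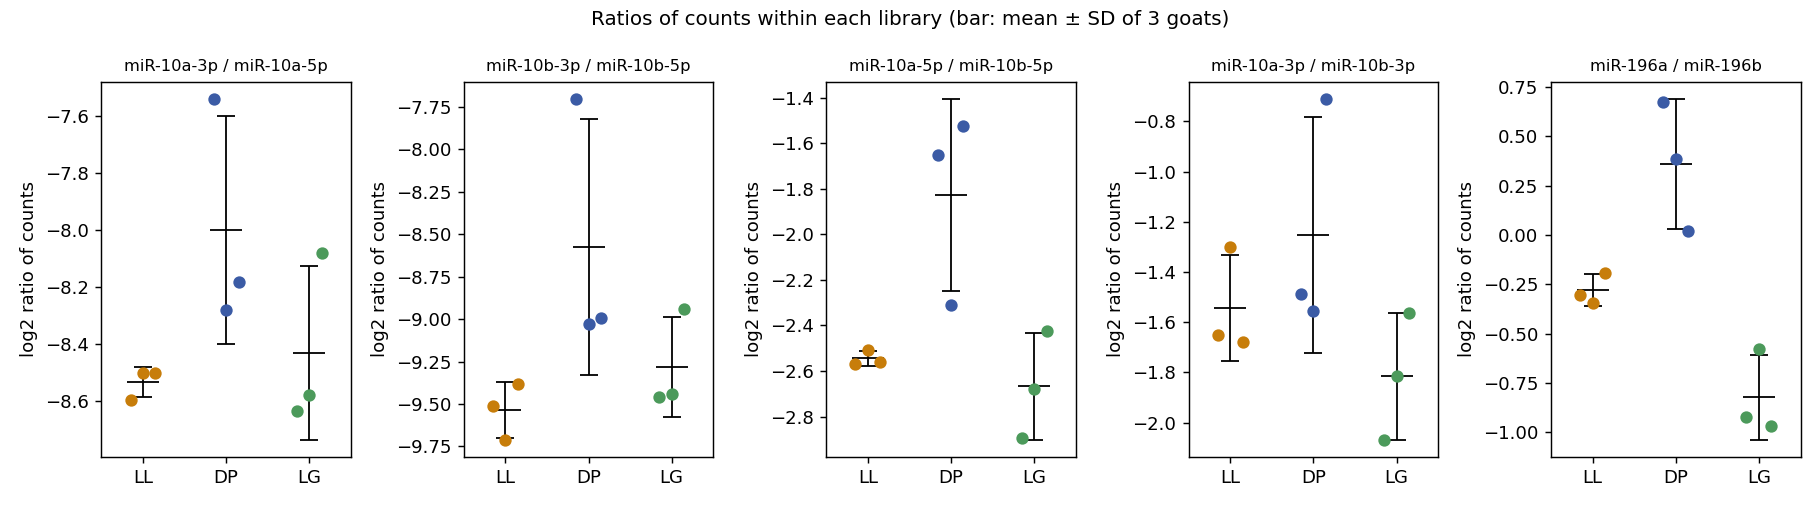
Log2 ratio of the counts of 2 members (y axis) in each library of LL, DP and LG, with the mean ± SD of 3 goats; 1 panel per ratio. In the panel of miR-196a to miR-196b the 3 stages do not overlap, with means of −0.28 in LL, 0.36 in DP and −0.82 in LG, and in both panels of 3p to 5p arms DP replicate 1 (the leftmost DP point) is the highest.

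The members were set beside relatives of miR-10, the miR-99 and miR-100 miRNAs, whose 5p arms have a seed close to that of the miR-10 5p arms and whose genes lie outside the HOX clusters. The list also holds their 3p arms, which do not share that seed. Of the 6 arms of chi-miR-99a, chi-miR-99b and chi-miR-100, all tested, 5 were called higher in DP than in LG and 5 higher in DP than in LL, beside 21.6% and 15.1% of all tested miRNAs, with medians of 1.64 and 1.6. Both counts and both medians include chi-miR-100-3p, which was abundant enough to be tested only through its DP libraries. It had 17 to 28 counts per library in DP, 1 to 11 in LL and 7 to 11 in LG. In LL vs. LG 0 of the 6 were called by edgeR (beside 8.91% of all tested called higher in LL), DESeq2 or limma-voom, 0 had an unadjusted p under 0.05 in any of these, and the median was 0.0434, where the members' was 0.615. The 5p arm of chi-miR-100 was 3.75-fold higher in DP than in LG (1.91 ± 0.307, adjusted p = 0.00101) and 4.02-fold higher than in LL (2.01 ± 0.308, adjusted p = 0.00105), beside 1.68 and 0.99 for chi-miR-10a-5p. That of chi-miR-99a was 3.47-fold and 3.44-fold higher (1.79 ± 0.301 and 1.78 ± 0.301, adjusted p = 0.0013 and 0.00185). The counts of called arms fell to 2 or 3 without DP replicate 2 or 3 or any one LG library in DP vs. LG, and without LL replicate 1 or 2 or DP replicate 2 or 3 in DP vs. LL. In DP vs. LG, 3 arms were called with no filter and 3 with at least 10 counts in every library. chi-miR-100-3p was not tested without any one DP library or with at least 10 counts in every library, so it could not be called there. The difference between relatives and members was not tested. No listed miRNA was named chi-miR-615, another HOX miRNA of mammals, in any arm.

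Across the 9 libraries the log2 levels of the members moved together, chi-miR-10b-5p least. Pearson's r was 0.976 between chi-miR-196a and chi-miR-196b, 0.942 between the arms of miR-10a, 0.606 between the arms of miR-10b, and 0.576 to 0.798 between chi-miR-10b-5p and the other 5. These points share 3 stages and the libraries' scaling, and r was not split into parts within and between stages. Of the 225 known miRNAs compared, the 6 members themselves left out, those most like chi-miR-10a-5p were chi-miR-125a-5p (r = 0.975), chi-miR-199a-3p (0.965) and chi-miR-199b-3p (0.965), the last 2 with the same mature sequence in mammals. Those most like chi-miR-196a were chi-let-7g-5p (0.96), chi-miR-195-3p (0.946) and chi-miR-28-3p (0.94), and those most like chi-miR-196b were chi-miR-125a-5p (0.933), chi-miR-28-3p (0.931) and chi-miR-28-5p (0.919). For chi-miR-10b-5p the closest, chi-miR-1468-5p, reached 0.871.

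Markers of some cell types in the gland also differed between stages, not all in the direction of the members. Of 9 listed epithelial miRNAs (the miR-200 and miR-183 families and miR-205), 8 were among those tested. The summed level of these 8 was 14100 to 22400 CPM in DP, below the 35300 to 43000 CPM in LL and 34900 to 38600 CPM in LG. In DP vs. LG, 3 of the 8 were called lower in DP, beside 9.91% of all tested miRNAs. In DP vs. LL, 5 were called lower and 1 higher in DP, beside 11.6% lower and 15.1% higher. Of 5 fibroblast and smooth muscle miRNAs (miR-143, miR-145, miR-199a, miR-214) 3 were called higher in DP than in either other stage, with summed levels of 47500 to 153000 CPM in DP, 77800 to 126000 CPM in LL and 57400 to 65600 CPM in LG. All 4 immune miRNAs were called higher in DP than in LG and 1 higher in DP than in LL, with sums of 1240 to 2400 CPM in DP, 893 to 1270 CPM in LL and 406 to 637 CPM in LG; 2 of them were called higher in LL than in LG, as chi-miR-196a was. Skeletal muscle markers summed to 907 to 3400 CPM in DP, 672 to 879 CPM in LL and 383 to 495 CPM in LG, and 2 of 4 were called higher in DP than in LG and 1 higher than in LL. Of 3 red blood cell markers (122 to 1280 CPM in DP, 364 to 551 in LL, 87.1 to 168 in LG) and 2 endothelial ones (19000 to 32000 CPM in DP, 15900 to 23000 in LL, 14700 to 16400 in LG), 1 each was called higher in DP than in LG. Among all tested miRNAs, 21.6% were called higher in DP when set against LG, and 15.1% when set against LL. For LL over LG the share was 8.91%. Outside the epithelial list, with 2 to 5 markers per list, a single call is hard to tell from these shares. No list was tested against them. No listed marker that was tested was at 0 in any library. The part of these cell types in the members' differences was not tested.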

How the data were processed

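Counts of reads per mature miRNA, 1 column per library, were deposited by the authors without normalization. Per the study's methods, reads were checked with FastQC 0.11.9 and trimmed with Trimmomatic, mapped with miRDeep2 (genome build ARS1.2), and counted with its quantifier on known (miRBase) and predicted miRNAs; the submitters' processing notes also name cutadapt 4.2 and Bowtie 1.1.1. The column of LL replicate 3, taken as estimated counts (expected counts) from the deposited table, held 2 values that were not whole and were rounded. Stages came from the labels. The libraries of other stages were not analysed here.

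The test was edgeR 4.0.16 (glmQLFit, glmQLFTest; R 4.3.3) with TMM, in 1 fit of all 9 libraries, on the 696 miRNAs that reached 0.5 CPM in 3 or more libraries. Calls needed a Benjamini-Hochberg adjusted p below 0.05 with a log2 fold change beyond 1 in either direction. SE is the absolute log2 fold change divided by the square root of F. Ratios used a pseudocount of 0.5 and an exact permutation test in Python 3.11.15. The script was tested on simulated data. Other settings tried were limma-voom (limma 3.58.1), DESeq2 1.42.0, other scalings and filters, fits of 2 stages, the replicate number as a block, and omission of single libraries; scaling by library size after removal of chi-miR-148a-3p was added after seeing the data. Correlations used log2 CPM (prior count 2) of known miRNAs averaging 10 CPM or more. The text names all members, the called members of the miR-99 and miR-100 list it turns on, and the 3 miRNAs most like a member. The members and lists were chosen with earlier results of these data known.

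A count of 3, taken as the floor, was 0.0873 to 0.219 CPM, which covers counting error only. Replicate numbers did not pair libraries: they came from different goats, and same-numbered libraries had correlations of their deviations from −0.101 to 0.214.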

Additional observations from a re-analysis of the deposited data

How the results depend on the processing

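The count of members called in DP vs. LG was 5 under each other scaling, tool, filter and fit, and without any one library (7.98 to 21.1% of all tested miRNAs called higher in DP), and 2 when chi-miR-148a-3p was removed and libraries were scaled by size alone (5.86%), which was chosen after seeing the data. In DP vs. LL it was 3 as reported, 5 with library size only (23.7% of all tested miRNAs called higher in DP), 2 with only the 2 stages in the fit (9.65%), 1 by size alone with chi-miR-148a-3p removed (3.82%), and 3 to 5 without 1 library (5 without LL replicate 2 or DP replicate 2). In LL vs. LG it was 1, and 0 when scaled by library size, after removal of chi-miR-148a-3p (with TMM or by size alone), with no filter, with at least 10 counts in every library and with only the 2 stages in the fit; without 1 library it was 0 to 1, with 0 without any one LL or LG library. Over all these settings 2.92 to 11.1% of the tested miRNAs were called higher in LL. Where this count was 0, between 0 and 2 members had an unadjusted p under 0.05, while DESeq2 and limma-voom each called 1. Of all called miRNAs, those higher in the stage named first were 150 of 219, 105 of 186 and 62 of 89 in DP vs. LG, DP vs. LL and LL vs. LG; 116 of 201, 165 of 224 and 30 of 120 with library size only; 117 of 217, 90 of 188 and 50 of 94 with TMM after removal of chi-miR-148a-3p; and 46 of 239, 30 of 200 and 47 of 95 by size alone after its removal. With upper quartile scaling LL vs. LG had 51 of 91. The replicate block gave 5, 3 and 1 calls, as without it. In both other stages, 4 of 9 libraries correlated best with their own number, a count that was not tested against chance.

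Of 342 log2 fold changes of members under alternatives, 306 kept their direction and call, 19 lost the call, 12 gained it and 5 changed sign. With library size only, LL vs. LG was −0.015 for chi-miR-10a-3p, −0.27 for chi-miR-10b-3p and −0.027 for chi-miR-10b-5p; with chi-miR-148a-3p also left out, chi-miR-10b-5p was −0.031 in DP vs. LG and −0.30 in DP vs. LL. The median of all tested miRNAs in these was −0.42, −0.66 and −0.51. Without 1 library, the adjusted p of the ratio of chi-miR-10a-5p to chi-miR-10b-5p ranged from 0.0446 to 0.179 and that of chi-miR-196a to chi-miR-196b from 0.0179 to 0.0536; a pseudocount of 5 changed neither. Of the 3 miRNAs most like chi-miR-196a, 2 stayed among the top 3 by Spearman's rank correlation, and of those most like chi-miR-196b 1, chi-miR-10b-5p 2, chi-miR-10b-3p 1 and either arm of miR-10a 0. Calls of the miR-99 and miR-100 arms fell to 2 or 3 in some fits without 1 library (2 without DP replicate 3 in both comparisons). They fell to 3 in DP vs. LG with no filter or at least 10 counts in every library, and to 0 and 2 by size alone with chi-miR-148a-3p removed. Part of this is that chi-miR-100-3p was not tested without any one DP library or with at least 10 counts in every library. chi-miR-100-5p was called in each fit without 1 library. With 3 goats per stage, no pair of stages could pass an exact test on a ratio, and the rarest member had 50 counts.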
